A study of Mus musculus with 12 samples.

Results

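The Notch pathway was followed through lung development at the level of RNA with 10 genes, which were found by their symbols: the receptors Notch1, Notch2, Notch3 and Notch4, the ligands Dll1, Dll4, Jag1 and Jag2, and the target genes Hes1 and Hey1. All 10 were among the 16152 genes of the deposited count table and among the 15994 genes tested. Whole lungs of wild-type C57BL/6 mice of both sexes were collected on embryonic days E15.5 and E18.5 and on postnatal days P5 and P8, with 3 replicates at each time-point and no treatment. The 3 replicates of a time-point were littermates, so that litter and time-point cannot be told apart, and the p-values measure the spread between lungs of one litter. The 12 libraries held between 41337443 and 53901957 reads on the genes of the count table.

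Notch receptors are single-pass membrane proteins that bind Delta and Jagged ligands carried by a neighbouring cell. Binding exposes the receptor to cleavage by an ADAM protease and then by the gamma-secretase complex, and the freed intracellular part joins the DNA-binding protein Rbpj in the nucleus to switch on Hes and Hey genes, which encode transcriptional repressors. In the lung the pathway is known for its part in artery formation and vessel sprouting, where Dll4 and Notch4 are largely endothelial genes, in pericytes and smooth muscle, where Notch3 is prominent, and in the choice between secretory and ciliated fates in the airway epithelium.

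The libraries carried the markers of lung. Nkx2-1, the transcription factor that defines lung epithelium, lay between 135.8 and 236.6 CPM (reads of a gene scaled to the mapped reads of its library) over the 12 libraries, and the 6 endothelial markers were above 0 in each of them. Genes of developing T cells set 3 libraries apart. The summed level of 9 such thymus genes was 193.7 and 367.0 CPM in P8 replicates 1 and 2 and 26.8 CPM in E15.5 replicate 2, against at most 19.5 CPM in any of the other libraries. Changes whose call was lost without these 3 libraries are also given without them.

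Between E18.5 and P5, the interval that spans birth, 4 of the 10 genes passed both cutoffs, a change of more than 1 on the log2 scale and a false discovery rate (FDR) under 0.05. These were Notch4, Dll1, Dll4 and Hey1, and all 4 were higher after birth. Of all genes tested, 26.8% passed both cutoffs in this comparison and 17.5% did so with a higher level at P5. With the FDR alone, 7 of the 10 genes changed, against 71.1% of all genes, and 6 were higher at P5, against 35.4%. The exception was Notch2, which was lower. The median log2 fold change was 0.57 over the 10 genes and -0.00 over all genes tested. Adjacent comparisons share the libraries of the time-point between them, so their values are given side by side and were not correlated.

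**Figure D1:**
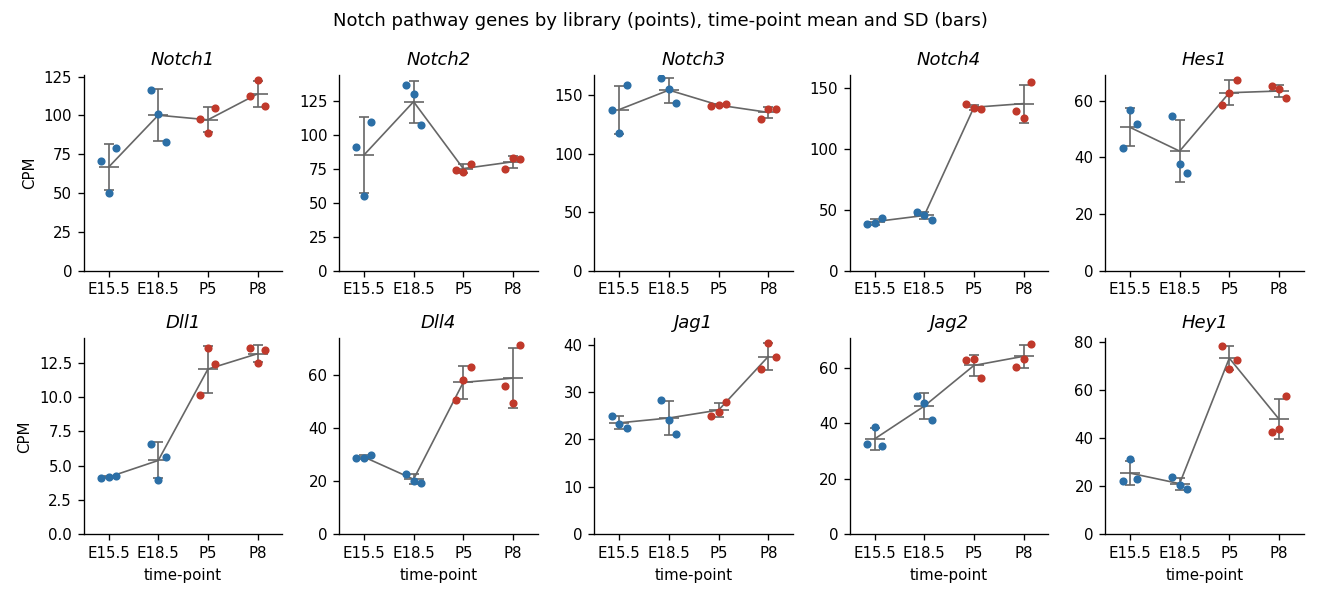
Level of each gene in CPM (vertical axis, from 0) at the 4 time-points (horizontal axis). Points are single libraries, blue before and red after birth, and the line and bars give the mean and SD of 3 libraries. In Notch4, Dll1, Dll4, Jag2, Hes1 and Hey1 every postnatal library lies above every embryonic library, whereas Notch3 stays between 117.5 and 164.2 CPM throughout. The share of all genes that separate in this way was not counted. From E18.5 to P5, 35.4% of all genes passed the FDR with a higher level.

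Among the receptors, Notch4 had the largest change. Notch4 (ENSMUSG00000015468; chr17:34564268-34588503, plus strand, mm10) encodes the receptor that is mostly made by endothelial cells. Its level was 38.6, 38.7 and 43.1 CPM in the 3 E15.5 libraries and 48.1, 45.7 and 41.9 CPM at E18.5. After birth it was 136.2, 133.3 and 132.3 CPM at P5 and 130.7, 125.5 and 154.7 CPM at P8. All 6 postnatal libraries were thus above all 6 embryonic ones, with no value in between. Across birth the log2 fold change was 1.65 (SE 0.087, edgeR FDR 1.1e-08), or 3.15-fold. Neither the step before it (0.18, FDR 0.16) nor the step after it (0.01, FDR 0.93) passed the FDR cutoff.

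The remaining receptors followed other courses. Notch1 (ENSMUSG00000026923; chr2:26457903-26516663, minus strand), a receptor used in many tissues, was at 70.5, 50.2 and 79.1 CPM at E15.5 and at 116.5, 100.6 and 83.1 CPM at E18.5. It was at 97.8, 88.8 and 104.8 CPM at P5 and at 112.7, 122.5 and 106.2 CPM at P8. The 3 E15.5 libraries were the lowest of the 12, and the later time-points overlapped except that P8 lay above P5. Notch1 rose before birth, by 0.59 on the log2 scale from E15.5 to E18.5 (SE 0.16, edgeR FDR 0.019), and its change across birth was 0.04 (FDR 0.82). The rise before birth missed the FDR cutoff without E15.5 replicate 2 (0.43, FDR 0.05), without E18.5 replicate 1 (0.46, FDR 0.088) or without E18.5 replicate 2 (0.59, FDR 0.055), and it was 0.43 (FDR 0.048) without the 3 libraries that carry thymus genes.

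Notch2 (ENSMUSG00000027878; chr3:98013527-98150361, plus strand), which is widely expressed in mesenchyme and epithelium, was the one member that fell across birth. Its 3 values were 91.1, 55.1 and 110.0 CPM at E15.5 and 136.9, 130.5 and 107.3 CPM at E18.5. At P5 they were 74.1, 73.0 and 79.1 CPM and at P8 75.3, 83.4 and 82.7 CPM. The E18.5 and the postnatal libraries did not overlap, while the E15.5 range overlapped both. The step across birth was -0.64 on the log2 scale (SE 0.19, edgeR FDR 0.0078), and the step before it was 0.55 with an FDR of 0.051. The step before birth was smaller without E15.5 replicate 2 (0.32, FDR 0.068) and without the 3 libraries that carry thymus genes (0.32, FDR 0.072). It passed the FDR without E15.5 replicate 3 (0.79, FDR 0.0091) or E18.5 replicate 3 (0.66, FDR 0.04), in the DESeq2 test (0.56, FDR 0.0089) and the likelihood ratio test (0.55, FDR 0.023), with a filter of 5 CPM (0.56, FDR 0.047) and with a correction for exon length (0.47, FDR 0.046). The low value in E15.5 replicate 2 is shared by Notch1 and by other long genes. In that library the median log2 difference from the other E15.5 libraries was -0.12 over the 2628 genes with at least 8000 bases of exons and 0.07 over the 5254 genes with fewer than 3000 bases, and the part of this in the Notch1 and Notch2 values was not tested.

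Notch3 (ENSMUSG00000038146; chr17:32120820-32166852, minus strand), the receptor of pericytes and vascular smooth muscle, moved least of the 10 genes. It was at 136.9, 117.5 and 158.5 CPM at E15.5 and at 164.2, 155.6 and 143.0 CPM at E18.5. The postnatal values were 140.5, 141.3 and 142.6 CPM at P5 and 130.0, 137.8 and 137.9 CPM at P8. The means of the 4 time-points spanned 0.18 on the log2 scale, and none of the 4 comparisons passed the FDR cutoff (0.17, -0.04, -0.08 and 0.05). Of the markers of the cells that carry Notch3, those of pericytes moved over the same time, while the sums of smooth muscle markers overlapped. Their part in the level of Notch3 was not tested. The summed level of 6 pericyte markers lay between 203.7 and 230.9 CPM at E15.5 and between 416.2 and 449.7 CPM at P5, while 5 smooth muscle markers summed to 644.7 to 688.4 and 635.7 to 721.5 CPM at the same time-points. From E18.5 to P5, 4 of the 6 pericyte markers rose past the FDR and 2 fell (median log2 fold change 0.69), and 2 of the 5 smooth muscle markers rose (median 0.07). Of all genes, 71.1% passed the FDR and 35.4% did so with a higher level. Tagln, 1 of the 2 smooth muscle markers that rose, was near the filter at 0.904 and 1.97 CPM.

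**Figure D2:**
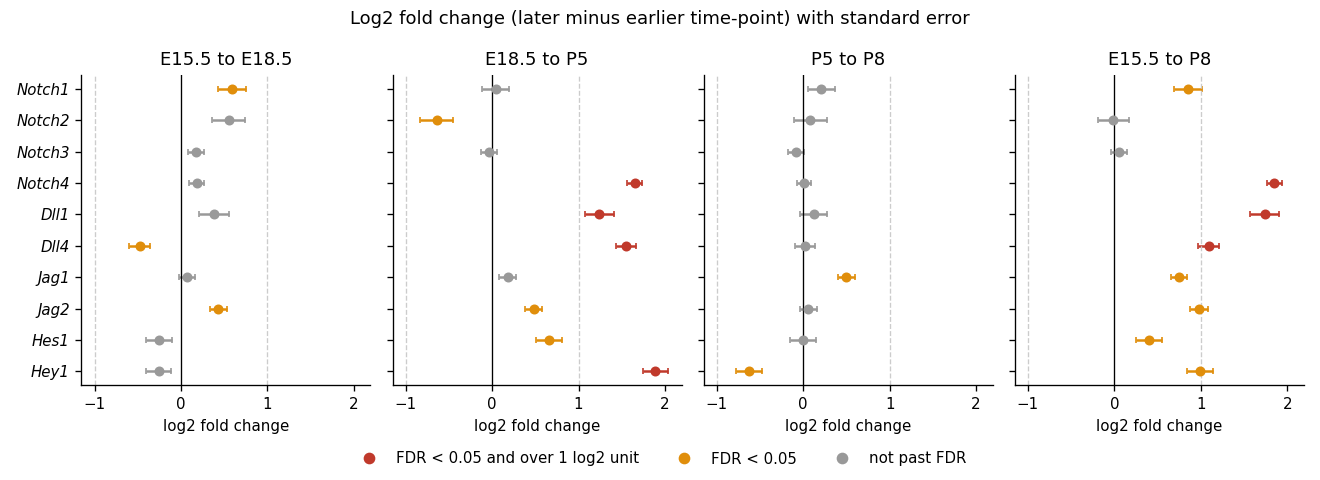
Log2 fold change of each gene (horizontal axis, later minus earlier time-point) with its standard error, one panel for each comparison. Red marks genes past both cutoffs, orange genes past the FDR alone and grey the rest; the 4 red points across birth are Notch4 (1.65), Dll1 (1.24), Dll4 (1.55) and Hey1 (1.89).

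Both Delta ligands rose across birth. Dll4 (ENSMUSG00000027314; chr2:119325784-119335962, plus strand), the ligand of arterial and sprouting endothelial cells, first fell and then rose. Its level was 28.8, 28.5 and 29.9 CPM at E15.5, and 22.8, 19.9 and 19.3 CPM at E18.5. It reached 50.3, 58.0 and 62.8 CPM at P5 and 55.8, 49.1 and 70.9 CPM at P8. The 3 E18.5 libraries were the lowest of the 12, and only P5 and P8 overlapped. Before birth the log2 fold change was -0.48 (SE 0.12, edgeR FDR 0.016) and across birth it was 1.55 (SE 0.12, FDR 2.7e-07), or 2.93-fold. Without E18.5 replicate 2 the decrease before birth was -0.45 with an FDR of 0.06.

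Dll1 (ENSMUSG00000014773; chr17:15367354-15376872, minus strand), a ligand active in tissue patterning and in arteries, was the least abundant member per length of exon. It was at 4.12, 4.15 and 4.21 CPM at E15.5 and at 6.55, 3.96 and 5.60 CPM at E18.5. It was at 10.2, 13.5 and 12.4 CPM at P5 and at 13.6, 12.4 and 13.4 CPM at P8. Every postnatal library was above every embryonic one. The rise from E18.5 to P5 was 1.24 on the log2 scale (SE 0.17, edgeR FDR 2.4e-05), or 2.37-fold. Of the exon length of Dll1, 20.5% lies within exons of A930024N18Rik on the opposite strand, and the strand setting of the counting is not given in the sources used here. A930024N18Rik itself did not exceed 0.784 CPM in any library, with means of 0.133 CPM before and 0.526 CPM after birth (E18.5 and P5). Dll4 shares 5.56% of its exon length with Gm14207, which reached at most 2.12 CPM. Notch1 shares 9.76%, Notch3 6.03% and Notch2 5.02% with genes that did not exceed 0.472 CPM. Gm42820, which overlaps Notch2, lies on the same strand as Notch2.

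The Jagged ligands rose less, and at different times. Jag2 (ENSMUSG00000002799; chr12:112907819-112929776, minus strand) was at 32.4, 38.8 and 31.8 CPM at E15.5 and at 50.0, 47.4 and 41.1 CPM at E18.5. At P5 it was at 62.7, 63.3 and 56.4 CPM and at P8 at 60.4, 63.3 and 68.6 CPM. E15.5, E18.5 and P5 did not overlap, whereas P5 and P8 did. Jag2 rose by 0.43 on the log2 scale from E15.5 to E18.5 (SE 0.099, edgeR FDR 0.01) and by 0.48 from E18.5 to P5 (SE 0.098, FDR 7.3e-04). Over the whole course from E15.5 to P8 its log2 fold change was 0.98 (SE 0.099, FDR 1.6e-06), just short of the cutoff on size.

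Jag1 (ENSMUSG00000027276; chr2:137081456-137116644, minus strand), which signals to vascular smooth muscle and is also made in the airway epithelium, rose between P5 and P8. It was at 25.0, 23.2 and 22.3 CPM at E15.5, at 28.3, 24.2 and 21.1 CPM at E18.5 and at 24.9, 25.8 and 27.9 CPM at P5, ranges that overlap. At P8 it was at 34.7, 40.3 and 37.4 CPM, above all 9 earlier libraries. The log2 fold change from P5 to P8 was 0.50 (SE 0.095, edgeR FDR 0.0064). Without the 3 libraries that carry thymus genes, which leaves P8 with 1 library, it was 0.49 with an FDR of 0.091.

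The target genes Hes1 and Hey1 did not follow the same course. Hey1 (ENSMUSG00000040289; chr3:8663359-8667256, minus strand), a repressor induced by Notch in arteries and vascular smooth muscle, was at 22.3, 31.2 and 22.8 CPM at E15.5 and at 23.7, 20.6 and 18.8 CPM at E18.5. It rose to 78.4, 68.7 and 72.5 CPM at P5 and was at 42.5, 43.8 and 57.3 CPM at P8. The P5 libraries were the highest of the 12, and the P8 libraries lay between them and the embryonic ones without overlap. Across birth its log2 fold change, 1.89, was the largest of the 10 genes (SE 0.15, edgeR FDR 2.8e-07), or 3.7-fold. From P5 to P8 Hey1 fell by 0.63 on the log2 scale (SE 0.15, edgeR FDR 0.014). That decrease missed the FDR cutoff without P5 replicate 1 (-0.56, FDR 0.051), without P8 replicate 1 (-0.58, FDR 0.056) or without P8 replicate 2 (-0.56, FDR 0.06). It was -0.38 with an FDR of 0.16 without the 3 libraries that carry thymus genes.

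Hes1 (ENSMUSG00000022528; chr16:30064384-30067796, plus strand), a repressor that keeps progenitors from differentiating and that is also induced by other pathways, was at 43.4, 56.7 and 51.6 CPM at E15.5 and at 54.7, 37.5 and 34.3 CPM at E18.5. It was at 58.5, 62.5 and 67.3 CPM at P5 and at 65.3, 64.0 and 60.9 CPM at P8. The embryonic time-points overlapped each other, as did the postnatal ones, and the 2 periods did not overlap. From E18.5 to P5 Hes1 rose by 0.66 on the log2 scale (SE 0.15, edgeR FDR 0.0021), or 1.58-fold. Its change from E15.5 to P8 was 0.40 (SE 0.15, FDR 0.03), and this call was lost without E15.5 replicate 1 (0.30, FDR 0.13), without P8 replicate 1 (0.36, FDR 0.082), without the 3 libraries that carry thymus genes (0.44, FDR 0.11), with scaling by library size only (0.33, FDR 0.061) and with a correction for exon length (0.21, FDR 0.21).

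In the comparisons that do not span birth fewer members changed. Before birth (E15.5 to E18.5) 0 of the 10 passed both cutoffs, against 3.04% of all genes, and 3 passed the FDR alone (Notch1 and Jag2 higher, Dll4 lower), against 21.5%. At an unadjusted p under 0.05, 5 members passed, against 5755 of all 15994 genes. Without E15.5 replicate 3 the FDR count was 5, with Notch2 and Notch3 (0.29, FDR 0.023) added. After birth (P5 to P8) 0 passed both cutoffs, against 2.96% of all genes, and 2 passed the FDR alone (Jag1 higher, Hey1 lower), against 18.0%. At an unadjusted p under 0.05, 2 members passed, against 5434 of all 15994 genes. With any 1 of P5 replicate 1, P8 replicate 1 or P8 replicate 2 left out the FDR count was 1, and without the 3 libraries that carry thymus genes, 0 members passed the FDR from P5 to P8. DESeq2 also put 0 members past both cutoffs in either comparison.

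From the first to the last time-point, E15.5 to P8, 8 of the 10 genes passed the FDR, against 76.3% of all genes, and all 8 were higher at P8, against 37.6% of all genes past the FDR and higher. Of these, 3 passed both cutoffs, against 32.3% in either direction and 20.9% higher. They were Notch4, with a log2 fold change of 1.85 (SE 0.088, edgeR FDR 2.5e-09), Dll1 with 1.74 (SE 0.17, FDR 1.0e-06) and Dll4 with 1.09 (SE 0.12, FDR 3.9e-06). Hey1 (0.99) and Jag2 (0.98) lay just under the cutoff on size, and both passed it with DESeq2 size factors, in the DESeq2 test, without E15.5 replicate 2, without P8 replicate 2, or without the 3 libraries that carry thymus genes, which gave 5 genes. Without P8 replicate 3 Dll4 was at 0.94, which left 2. Notch1 rose by 0.85 (0.59 without the 3 libraries that carry thymus genes, FDR 0.01) and Jag1 by 0.75 over this course, while Notch2 (-0.01) and Notch3 (0.05) did not pass the FDR.

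Per kilobase (kb) of exon, which allows an approximate comparison of levels between genes, the make-up of the receptors changed across birth. Exon length is that of all annotated exons of a gene merged (14232 bases for Notch1 and 8089 for Notch3). It can exceed the length of the transcripts made, so shares and orders between genes are approximate. Notch4 made up 13% ± 0.406 (SD, n = 3) of the summed receptor CPM per kb at E18.5 and 34.7% ± 0.876 at P5. Over the same interval Notch2 went from 26.7% ± 0.884 to 14.6% ± 0.403 and Notch3 from 44.1% ± 1.40 to 36.5% ± 0.563. Notch1 held 16.2% ± 1.14 and 14.2% ± 0.925. The receptor sum itself was 43.3 ± 4.30 CPM per kb at E18.5 and 47.9 ± 0.866 at P5, a difference close to the SD at E18.5. Before birth, then, Notch3 was the most abundant receptor per kb. At P5 Notch3 (17.5 ± 0.128 CPM per kb) still lay above Notch4 (16.6 ± 0.254) without overlap, and at P8 Notch4 (17.0 ± 1.93) and Notch3 (16.7 ± 0.559) overlapped.

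Among the ligands, the sum changed as well as the shares. The 4 ligands together summed to 17.5 ± 0.397 CPM per kb (SD, n = 3) at E15.5 and to 17.5 ± 1.84 at E18.5. After birth the sum was 30.9 ± 1.86 at P5 and 34.0 ± 3.38 at P8. Dll4 held 30.7% ± 0.744 of this sum at E18.5 and 47.9% ± 2.71 at P5, and Jag2, the leading ligand at E18.5 with 38.0% ± 1.68, held 28.4% ± 3.07 at P5. Jag1 held 24.0% ± 1.06 and then 14.6% ± 0.559. Dll1 stayed the smallest, at 7.28% ± 1.55 and 9.20% ± 0.856.

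**Figure D3:**
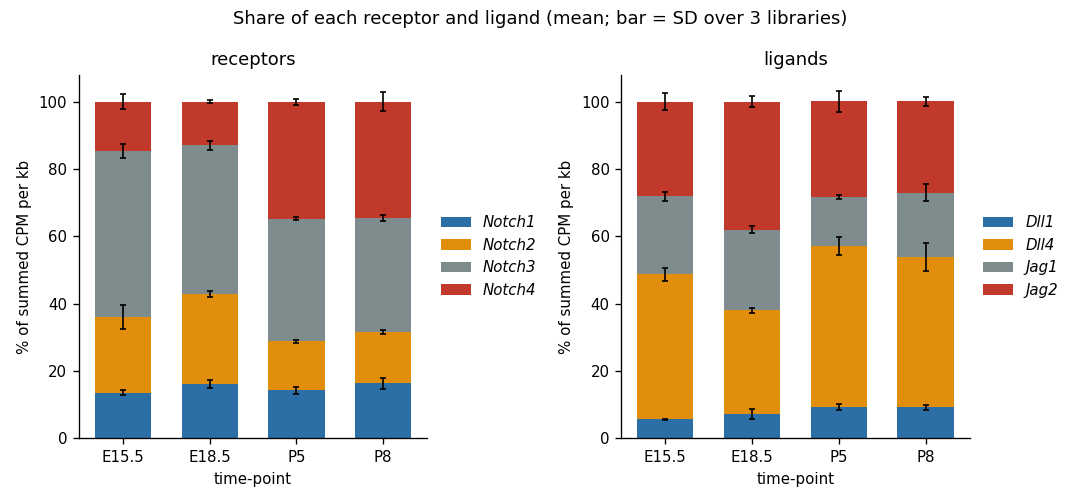
Share of each receptor (left) and ligand (right) in the summed CPM per kb of its family (vertical axis, percent) at the 4 time-points; bars are means and error bars SD over 3 libraries. The Notch4 share goes from 13% at E18.5 to 34.7% at P5 and the Dll4 share from 30.7% to 47.9%.

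Over all 10 genes, Hes1 was the most abundant per kb at each time-point, from 20.7 ± 5.38 CPM per kb at E18.5 to 31.1 ± 1.10 at P8, although its range at E18.5 overlapped that of Notch3 (19.1 ± 1.32). Dll1 was the least abundant throughout, from 0.985 ± 0.0112 to 3.11 ± 0.147 CPM per kb, and never overlapped its neighbour in the order. Hey1 moved from the sixth place at E18.5 (6.44 ± 0.762) to the second at P5 (22.4 ± 1.49), and Notch4 from the seventh (5.61 ± 0.389) to the fourth (16.6 ± 0.254). At E18.5 the ranges of Notch1, Jag2, Hey1 and Notch4 each overlapped that of the gene next below, down to Dll4, so the order of these 5 is not resolved there. At P5 the only neighbours whose ranges overlapped were Notch2 and Notch1.

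Endothelial genes moved with the members that rose most. All 6 endothelial markers (Pecam1, Cdh5, Tek, Kdr, Emcn and Cldn5) rose from E18.5 to P5, with a median log2 fold change of 1.21. So did all 5 arterial markers (Gja4, Gja5, Bmx, Efnb2 and Sox17), with a median of 1.90. The counts of markers in this paragraph are of those past the FDR. Of all 15994 genes, 71.1% passed it in this comparison, 5660 (35.4%) with a higher and 5709 with a lower level at P5. Summed over the 6 endothelial genes, E15.5 libraries lay between 740.4 and 824.5 CPM and E18.5 libraries between 1010 and 1086, whereas those of P5 ranged from 2370 to 2484 and those of P8 from 2003 to 2392. In RNA from whole lung, more cells of a type and more RNA per cell cannot be told apart. Epithelial markers went the other way, with 4 of 5 lower at P5 (median -0.54) and sums of 802.1 to 943.4 CPM at E18.5 and 520.6 to 576.1 at P5. Among 4 airway secretory and ciliated markers 3 rose (median 3.18), and their sum went from between 71.1 and 131.3 CPM to between 3800 and 4679. The part of these shifts in the members' changes was not tested.

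Set against the endothelial markers, the members fell into different courses. The same marker mean was taken from each of them, so these courses restate the changes given above against another baseline. The log2 ratio of Notch4 to the geometric mean of the 6 endothelial markers was -1.69 ± 0.073 (SD, n = 3) at E18.5 and -1.25 ± 0.052 at P5, so Notch4 rose by more than the mean of these markers. Hey1 went from -2.79 ± 0.15 to -2.12 ± 0.13 and Dll4 from -2.82 ± 0.12 to -2.49 ± 0.15, while Dll1 was at -4.79 ± 0.4 and -4.74 ± 0.18, a difference within its spread. At E15.5, however, the Dll4 ratio had been -1.95 ± 0.038, above all 3 later means, and that of Hey1 had been -2.16 ± 0.33. For the other 6 members the ratio was lower at P5 than at E18.5. It went from 0.08 ± 0.073 to -1.17 ± 0.038 in Notch3 and from -0.23 ± 0.15 to -2.08 ± 0.085 in Notch2. The 6 markers themselves rose by 0.34 (Emcn) to 2.24 (Cldn5) on the log2 scale from E18.5 to P5. The 5 arterial markers, which are not in this mean, rose by 0.65 (Efnb2) to 2.68 (Bmx), with a median of 1.90. Over that interval the log2 fold changes were 1.65 in Notch4, 1.55 in Dll4, 1.24 in Dll1 and 1.89 in Hey1.

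**Figure D4:**
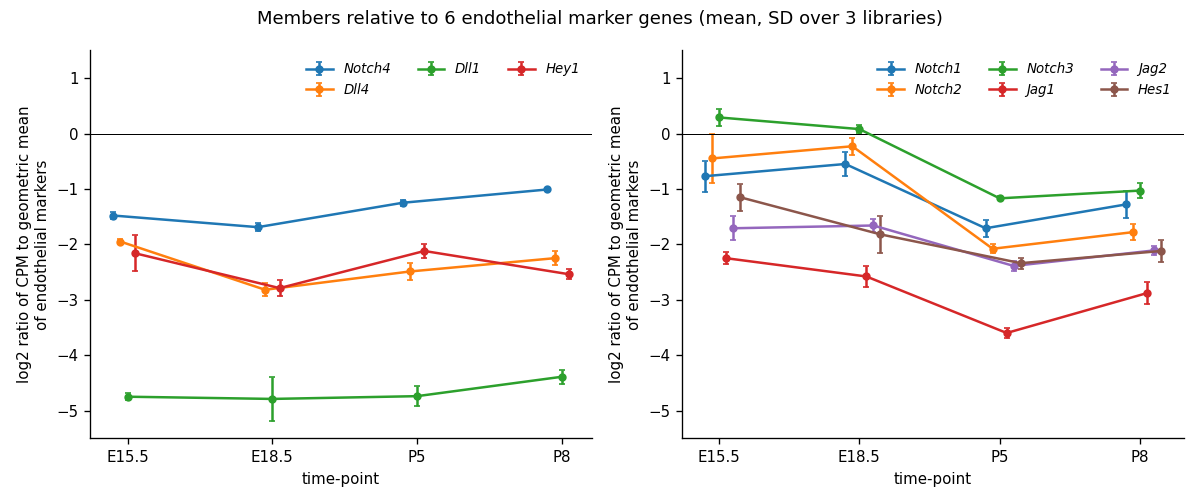
Log2 ratio of each member's CPM to the geometric mean of 6 endothelial markers (vertical axis) at the 4 time-points, with SD over 3 libraries. Left, the 4 members past both cutoffs across birth, whose ratios at P5 are at or above those at E18.5 (Notch4 -1.69 and -1.25); right, the other 6, whose ratios are lower at P5 (Notch3 0.08 and -1.17).

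The genes with the course most like that of each strongly changing member were sought by the mean absolute difference of centred log2 CPM over the 12 libraries, a description that carries no test. For Notch4 they were Adcy7, an adenylyl cyclase (difference 0.056), Tcn2, a vitamin B12 carrier (0.071), and Timp2, a metalloproteinase inhibitor (0.079). Adcy7 had a mean of 33.3 ± 0.663 CPM at E18.5 and one of 97.8 ± 2.56 at P5. For Dll1 they were the chemokine Cx3cl1 (0.111), the hyaluronan receptor Cd44 (0.115) and the integrin subunit Itga4 (0.128). For Dll4 they were Cyp2d22 (0.119), Thbs3 (0.125) and 9930014A18Rik (0.130), and for Hey1 Tmem204 (0.135), the pentraxin Ptx3 (0.160) and the long non-coding RNA Bvht (0.164). The 4 members did not appear among each other's nearest genes. Only 3 of the 15994 tested genes were listed for each, so this absence does not show that their courses differed.

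Because Notch4 and Dll4 rose together across birth, the sequence just before the start of each gene is shown. Both are from RefSeq (GRCm38.p6, plus strand), 5′ to 3′. The Notch4 stretch is chr17:34564045-34564267, in which capitals mark AGGAAG, the form of the ETS core that was searched, on either strand. The Dll4 stretch is chr2:119325565-119325783, in which capitals mark the GC box GGGCGG and the CCAAT box on either strand.
Notch4: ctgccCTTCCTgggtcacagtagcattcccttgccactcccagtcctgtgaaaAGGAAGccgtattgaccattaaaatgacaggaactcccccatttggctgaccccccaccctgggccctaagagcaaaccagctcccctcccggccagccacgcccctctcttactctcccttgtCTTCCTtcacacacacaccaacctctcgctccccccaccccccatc
Dll4: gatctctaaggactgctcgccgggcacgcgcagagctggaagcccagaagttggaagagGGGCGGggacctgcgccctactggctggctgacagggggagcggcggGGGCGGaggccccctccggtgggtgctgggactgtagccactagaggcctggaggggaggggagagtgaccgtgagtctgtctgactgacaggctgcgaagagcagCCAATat

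The stretch of Notch4 held 3 matches to AGGAAG and none to the other motifs searched. That of Dll4 held 2 GC boxes and 1 CCAAT box and no AGGAAG. Shorter forms of the ETS core, such as GGAA, were not searched and occur unmarked in both stretches. RefSeq upstream windows were found for 8 of the 10 members (9 windows, 2 of them for Dll1), and not for Hes1 and Hey1. Of the 9 windows, 2 held AGGAAG (29.5% of all 32851 windows did), 5 a GC box (32.7%) and 2 a CCAAT box (33.8%). The Rbpj motif TGGGAA was in 0 of the 9, against 21.6% of all windows. The motifs were searched on both strands upstream of each start, no match overlapped another in the stretches shown, and a match is a description of letters, not of binding.

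The rest of the pathway was read from 55 further genes, of which 49 were tested. Across birth 29 of the 49 passed the FDR (15 higher and 14 lower), or 59.2% against 71.1% of all genes, and 6 passed both cutoffs, 3 in each direction, or 12.2% against 26.8%. Their median log2 fold change was -0.08, against 0.57 over the 10 members and -0.00 over all genes. The most changed was Dlk1, a membrane protein related to the Delta ligands that lacks their receptor-binding domain. It lay between 766.6 and 845.7 CPM at E18.5 and in the P5 libraries between 105.0 and 130.6, which gave a log2 fold change of -2.70 (SE 0.091, edgeR FDR 5.2e-10). Dner, another non-canonical ligand, was near the detection filter at 1.13 ± 0.225 and 0.535 ± 0.256 CPM (-1.01, FDR 0.023), and its call was lost when any 1 of 4 libraries was left out (E18.5 replicate 2 or 3, P5 replicate 1 or 3, with -0.98 to -0.76). It passed both cutoffs in 14 of 22 alternatives, and with DESeq2 size factors, in the DESeq2 test, without the 3 libraries that carry thymus genes and with a correction for exon length it kept the FDR but missed the cutoff on size narrowly (-0.98 with the correction). Without P5 replicate 1, 4 genes passed both cutoffs.

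The roles within the pathway are set here against the 71.1% of all genes that passed the FDR across birth, of which about equal numbers rose (5660) and fell (5709). Of 9 genes of receptor cleavage, 5 rose and 0 fell (55.6% past the FDR), with Psen2, a catalytic subunit of gamma-secretase, at 7.69 ± 1.79 CPM before and 17.5 ± 1.14 CPM after birth (log2 fold change 1.27, SE 0.15, edgeR FDR 7.7e-06). Of the 5 glycosyltransferases that modify the receptors, 2 rose and 2 fell (80.0% past the FDR), and the largest change was in Lfng, which tunes the response to Delta and Jagged ligands (40.2 ± 3.70 and 63.4 ± 1.95 CPM; 0.74, FDR 5.7e-06).

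In the nuclear complex 2 of 8 genes rose and 3 fell across birth (62.5% past the FDR, against 71.1% of all genes). The paralogous histone acetyltransferases Kat2a and Kat2b changed in opposite directions. Kat2a had means of 77.3 ± 5.80 CPM at E18.5 and 32.1 ± 0.957 at P5 (log2 fold change -1.18, SE 0.065, edgeR FDR 1.4e-08). Kat2b was at 20.3 ± 0.653 and 52.1 ± 1.79 CPM (1.45, SE 0.084, FDR 2.2e-08). Both act on many genes outside the Notch pathway. Rbpj, the protein through which all 4 receptors act, fell from 157.2 ± 16.0 to 104.6 ± 1.54 CPM (-0.50, FDR 1.1e-04) and is named here after its values were seen.

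Among 8 corepressors 2 rose and 3 fell (62.5% past the FDR, against 71.1% of all genes), with the largest change in Tle4 (24.9 ± 4.96 and 34.2 ± 2.07 CPM; log2 fold change 0.54, edgeR FDR 0.0011). Of 13 ubiquitin ligases and inhibitors 4 rose and 4 fell (61.5% past the FDR). Numb, an inhibitor of Notch that is shared out unequally at cell division, had means of 35.3 ± 1.90 CPM at E18.5 and 67.1 ± 2.71 at P5 (1.02, SE 0.085, FDR 4.1e-07), and passed both cutoffs in 19 of 23 alternatives. The change was 0.95 with scaling by library size only, 0.99 without E18.5 replicate 1, 0.97 without P5 replicate 1 and just under 1 without P5 replicate 2. Of 4 further genes tested, Hes6, Hey2 and Heyl of the Hes and Hey families and the target Nrarp, 0 passed the FDR across birth. At an unadjusted p under 0.05, 0 passed, against 11723 of all 15994 genes. Heyl was at 80.2 ± 8.87 and 76.8 ± 7.82 CPM and Nrarp at 7.71 ± 1.71 and 7.54 ± 0.657 CPM, beside the rise of Hey1. These 4 are named after their values were seen, and whether they differed from Hey1 in their change was not tested.

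**Figure D5:**
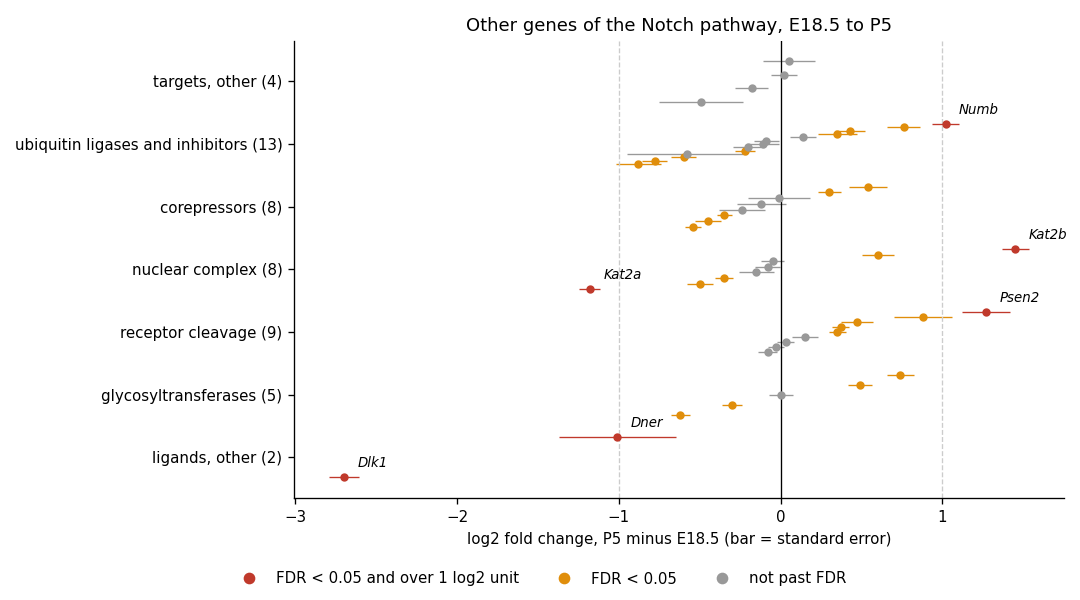
Change across birth (E18.5 to P5, log2 fold change on the horizontal axis, with standard error) of the 49 tested genes of the wider pathway, in rows by role with the number tested in brackets. Red points, which are named, passed both cutoffs: Dlk1 (-2.70), Kat2a (-1.18) and Dner (-1.01) were lower and Numb (1.02), Psen2 (1.27) and Kat2b (1.45) higher.

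In the other comparisons few of these 49 genes passed both cutoffs. Before birth there were 0, against 3.04% of all genes, with 17 past the FDR (34.7% against 21.5%). At an unadjusted p under 0.05 there were 25, against 5755 of all 15994 genes. From P5 to P8 there was 1 (2.04% against 2.96%), Dtx1, a ubiquitin ligase and Notch target that is active in developing T cells. Dtx1 was at 2.62, 1.71 and 2.94 CPM at P5 and at 6.20, 8.48 and 3.12 CPM at P8 (log2 fold change 1.27, edgeR FDR 0.037). Its P8 values were highest in replicates 1 and 2, which carry the thymus genes, and without the 3 such libraries it was 0.33 with an FDR of 0.63. The call was also lost without any 1 of the P5 libraries (1.05 to 1.39) or without P8 replicate 1 (1.20) or 2 (0.94). From E15.5 to P8 there were 6 (12.2% against 32.3%), namely Psen2 (1.27), Aph1c (1.30), Kat2b (1.36) and Dtx3l (1.61) higher, and Dlk1 (-3.06) and Kat2a (-1.25) lower. Aph1c is a further gamma-secretase subunit and Dtx3l a ubiquitin ligase of the Deltex family.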

How the data were processed

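RNA from whole mouse lungs was sequenced as paired-end reads from TruSeq libraries at 4 time-points (3 libraries each, groups from the labels). Per the study's methods and processing notes, the authors aligned reads to mm10 with TopHat2 2.1.1 and Bowtie2 2.3.4, counted uniquely mapped reads per Gencode gene with HTSeq-count 0.10.0, and kept genes that reached 1 CPM in 3 samples. The authors deposited raw counts of these 16152 genes (the unit is counts, not normalized) and, for 51825 genes, CPM, each count divided by the total mapped reads of its library. The CPM steps gave whole reads for 100% of values (tolerance 0.01), equal to the deposited counts. Deposited splicing percentages were not used here, since their events were not paired with gene names. Symbols, positions and exon lengths came from Gencode M21 on GRCm38 (mm10). A symbol was matched to 16136 IDs.

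Counts of the 15994 genes that reached 1 CPM in 3 or more libraries were fitted in edgeR 4.0.16 (R 4.3.3) by the quasi-likelihood test with TMM factors, with the 12 libraries in one fit and the time-point as the only term. FDR is the Benjamini-Hochberg value over all genes tested. Genes passed both cutoffs at an absolute log2 fold change over 1 and FDR under 0.05. The fit was tested on simulated data. At 41337443 to 53901957 counted reads per library, 1 CPM was over 40 reads. Averaged over all genes, the chi-square per gene between replicates was 12.9 to 75.2, more than counting error alone gives. Genes with many reads weigh most in this mean. Counting error was not set against the spread for single members, so a small SD need not be a spread between lungs. Levels printed are CPM, or CPM per kb where genes are compared.

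The members and the gene lists were chosen with earlier results of these data known, as were the 3 libraries left out for thymus genes. Named were all members, the genes of the wider list past both cutoffs in any comparison, the most changed gene of each of its subgroups across birth, and the 3 genes most like each member whose time-point means spanned at least 1 on the log2 scale. Alternatives were DESeq2 1.42.0 size factors and its Wald test, library size only, the likelihood ratio test, no filter and a filter of 5 CPM, only the time-points compared, a replicate block, each library left out, and the 3 thymus libraries left out. Reads recovered from CPM and a correction for exon length were added after seeing the data.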

Additional observations from a re-analysis of the deposited data

Results flagged for a closer look

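Of the 55 further pathway genes, 5 are outside the count table, and their reads stand only in the CPM table. Recovered from the CPM steps, the reads over the 12 libraries were 165 for Dll3, a ligand of the Delta family. They were 216 for Hes2, 19 for Hes5 and 191 for Hes7, genes of the Hes family. These are listed because each had more than 3 reads, a chosen limit, whereas Hes3 had 3 reads. Their highest values in a library were 0.610, 0.604, 0.157 and 0.613 CPM, under the filter of 1 CPM. By time-point, Dll3 had 72, 55, 16 and 22 reads and Hes7 had 62, 67, 23 and 39 reads from E15.5 to P8. These sums over 3 libraries were not tested.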

How the results depend on the processing

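Across the 23 alternatives run, Notch4, Dll1, Dll4 and Hey1 passed both cutoffs from E18.5 to P5 in all 23, with log2 fold changes of 1.59 to 1.76, 1.06 to 1.42, 1.48 to 1.63 and 1.80 to 1.99. The number of members past both cutoffs from E15.5 to P8, 3, was 5 with DESeq2 size factors, in the DESeq2 Wald test, with the filter of 5 CPM and without the 3 thymus libraries, and 2 to 5 with 1 library left out. Members past the FDR numbered 2 to 5 from E15.5 to E18.5 and 1 to 2 from P5 to P8 with 1 library left out, and 0 from P5 to P8 without the 3 thymus libraries. The wider-list count from P5 to P8, 1, was 0 without those libraries, 0 to 1 with 1 library left out, and 0 with the replicate block (Dtx1 1.19, FDR 0.065). Of 18 same-number pairs of libraries, 3 had correlated deviations over 0.1 (range -0.34 to 0.3). Pairs with different numbers were not compared, so this cannot show whether the replicate numbers pair the samples. The block changed no other count by more than 1.5 times. The cause of these shifts was not tested.

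Of 920 values of the members under an alternative, 863 kept their direction and their side of the FDR cutoff, 14 lost the call, 11 gained it and 32 turned direction, all 32 from values that had not passed the FDR. From E18.5 to P5 Notch1 was -0.03 by library size only and -0.08 to 0.18 with 1 library left out, and Notch3 was 0.07 with the length correction and -0.1 to 0.02 with 1 left out. From E15.5 to P8 Notch2 was 0.02 with DESeq2 size factors, with the Wald test and with 5 CPM, 0.01 with the replicate block, 0.05 with the length correction and -0.25 to 0.22 with 1 left out. Notch3 was -0.02 by library size only and without the thymus libraries, and -0.05 to 0.17 with 1 left out. From P5 to P8 Hes1 was 0.01 with DESeq2 size factors, library size only, the Wald test or 5 CPM, 0.00 with only these time-points, and -0.05 to 0.02 with 1 left out. With 1 left out, Notch4 was -0.09 to 0.08, Dll4 -0.14 to 0.15 and Jag2 -0.02 to 0.1 from P5 to P8, and Jag1 was -0.06 to 0.17 from E15.5 to E18.5. With the filter of 5 CPM, Dner was not tested. Leaving out the 3 thymus libraries leaves P8 with 1 library, assumed to vary like the others.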
